A study of Glycine max with 30 samples.

Results

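To investigate how accessible chromatin differed across subjective dusk, the 3 ATAC-seq libraries labelled ZT8 were compared with the 3 labelled ZT12. The members of the comparison were the regions of the merged peak lists of these 2 time points. Joining both lists gave 26445 accessible chromatin regions (ACRs), of 35922 in the lists of all 6 time points. The leaves were first trifoliate leaves of wild-type soybean (Glycine max) cultivar Ws82 (Williams 82). The plants had been entrained in short days of 8 h light and 16 h dark and then kept in constant light (LL). Every group compared thus had the same genotype and the same light, and by the labels the groups differed only in sampling time. Sampling was done every 4 h, and the names ZT8 and ZT12 are those of the labels. In the short days the lights had gone off at ZT8, so both samplings fell at or after the former dusk but in continuing light. ATAC-seq (assay for transposase-accessible chromatin) uses the transposase Tn5 to cut nuclear DNA where it is not covered by nucleosomes, and places that collect many fragments are called as peaks. The series holds 30 samples, of which 18 libraries, 3 for each of 6 time points, had peak lists, and the other 12 samples (wild type and clock mutants) were not analysed here.

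In plants the circadian clock is a loop of transcription factors that act one after another through the day. LHY and its relatives act around dawn, the pseudo-response regulators through the day, and the evening complex, which contains LUX, around and after dusk. These proteins are mostly repressors, and they bind short elements in open promoters and more distal ACRs, so that a change in the accessibility of a region can accompany a change in the activity of the gene beside it. The regions are given here by their position on the Wm82.a2.v1 assembly. Genes, motifs and sequences at these positions were not analysed here, since no annotation or genome of that assembly was used.

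The 6 lists differed in length and depth within both time points. ZT8 replicates L, M and R held 15942, 16939 and 8143 peaks, and ZT12 replicates L, M and R held 10813, 21804 and 16198 peaks. ZT8 replicate R was the shortest list and ZT12 replicate M the longest, and the ranges of the time points overlapped. The mean number of peaks was 13675 ± 4816 for ZT8 and 16272 ± 5496 for ZT12 (SD over 3 libraries each, exact permutation test, two-sided, p = 0.6). The covered length was 4.19 ± 1.67 Mb at ZT8 and 5.08 ± 1.68 Mb at ZT12 (exact permutation test, p = 0.6), and the median peak width was 257 ± 20.3 bp and 266 ± 11 bp (exact permutation test, p = 0.6). The background coverage, the fragments per base that the peak caller took as the genome-wide floor and a measure of depth, was 0.463, 0.476 and 0.39 at ZT8 and 0.595, 0.495 and 0.784 at ZT12. It was higher in all 3 ZT12 libraries than in any ZT8 library, with means of 0.443 ± 0.0464 and 0.625 ± 0.147 (exact permutation test, p = 0.1, the smallest that 3 against 3 allows, and 0.4 after Benjamini-Hochberg adjustment over the 4 measures). Depth and sampling time could therefore not be told apart in calls of weak peaks, and calls are given below also with an equal number of peaks, the 8143 of highest −log10 q in each of the 6 lists.

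**Figure D1:**
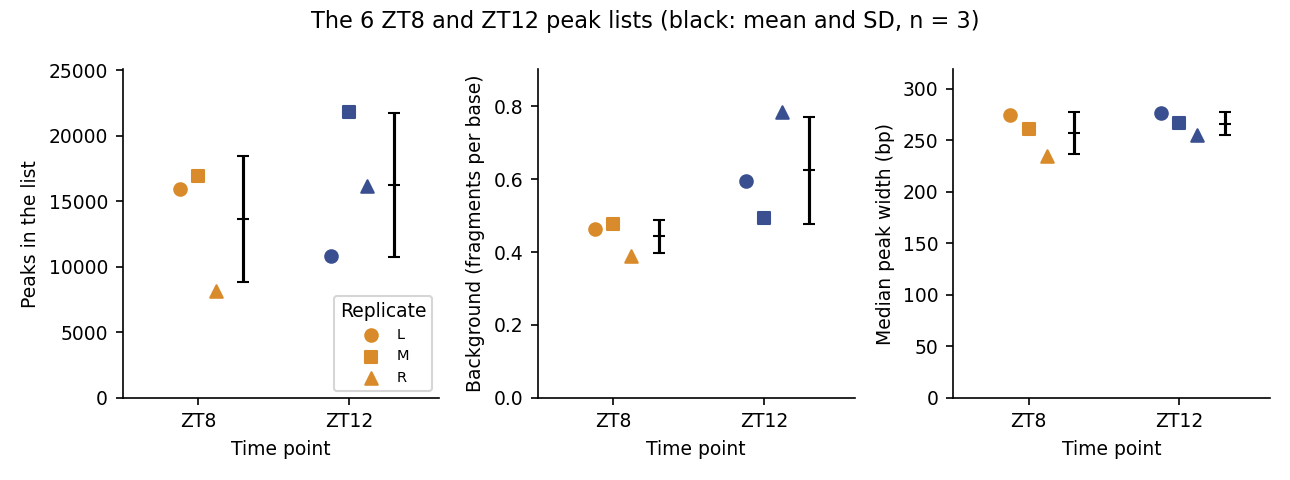
Number of peaks, background coverage in fragments per base and median peak width in bp of each ZT8 (orange) and ZT12 (blue) library, with replicates L, M and R as circle, square and triangle, and the mean and SD of 3 libraries in black. The background is above 0.49 in all ZT12 libraries and below 0.48 in all ZT8 libraries, whereas peak numbers overlap, with ZT8 replicate R lowest at 8143.

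About as many regions were held by both merged lists as by 1 list alone. The ZT8 merged list, called by the authors on the pooled reads of its 3 replicates, held 18559 regions and the ZT12 merged list 21022. Of the 26445 joined regions, 13018 (49.2%) were in both lists, 5487 (20.7%) in the ZT8 list alone and 7940 (30%) in the ZT12 list alone. Regions in both lists were wider, with a median of 457 bp, than those in the ZT8 list alone (289 bp) or the ZT12 list alone (298 bp). Merged lists have no replicates, so these shares carry no test.

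Being in 1 merged list alone did not mean that the other time point had no peak there. Among the 5487 regions of the ZT8 list alone, 1196 (21.8%) overlapped a peak of at least 1 ZT12 library, and 130 of them overlapped a peak in all 3. Among the 7940 regions of the ZT12 list alone, 1368 (17.2%) overlapped a peak of at least 1 ZT8 library, and 117 a peak in all 3. A peak in all 6 libraries was found at 65 regions of the ZT8 list alone and at 75 of the ZT12 list alone. The replicate libraries were therefore used to ask which regions differed.

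A region was taken as called in a library when a peak of that library overlapped it by 1 bp or more. By that rule ZT8 replicates L, M and R called 54.1%, 55.9% and 27.1% of the joined regions, and ZT12 replicates L, M and R called 37.4%, 70.1% and 46.3%. The commonest outcome was a call in 1 library of 1 time point only, at 5018 regions for ZT12 and 3280 for ZT8, followed by a call in all 6 libraries at 3726 regions (14.1%). The shares called were 27.1% to 30.1% in every library when lists of equal length were used.

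Regions that were called in all 3 libraries of 1 time point and in none of the other were few. At ZT12, 251 regions were gained (called in 3 of 3 ZT12 and 0 of 3 ZT8 libraries), which is 0.949% of the joined regions, and 114 were lost (3 of 3 ZT8 and 0 of 3 ZT12), which is 0.431%. The larger number of gained regions was kept in some settings and not in others. It was kept at −log10 q of at least 5, with 133 gained (0.503%) and 25 lost (0.0945%). In the upper 50% of each list 163 were gained (0.616%) and 53 lost (0.2%). It was also kept at 50% overlap, with regions from the library lists, and without ZT8 replicate L or M or ZT12 replicate L or R. Taking an equal number of peaks gave 155 gained (0.586%) and 176 lost regions (0.666%). Without ZT8 replicate R, the shortest list, 306 were gained (1.16%) and 797 lost (3.01%), and without that library and with lists of equal length for the other 5, 269 were gained (1.02%) and 635 lost (2.4%). Leaving out ZT12 replicate M, the longest list, gave 419 gained and 417 lost. The direction of the balance between gained and lost regions thus turned with 1 library or with list length, and no direction is given for it.

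**Figure D2:**
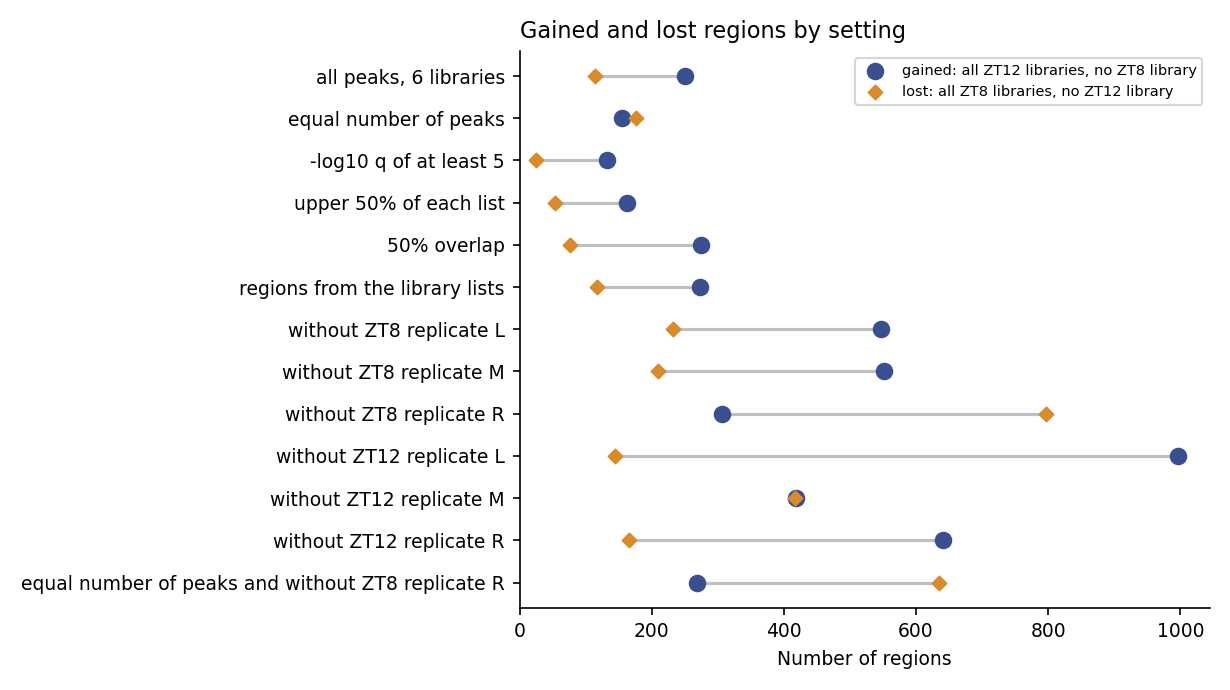
Number of gained regions (blue circles) and lost regions (orange diamonds) among the joined regions with all peaks and under each other setting, 1 setting a line, on a linear axis of regions. Gained regions are the more numerous with all peaks (251 against 114), and lost regions with an equal number of peaks (176 against 155) and without ZT8 replicate R (797 against 306).

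The membership of both classes also moved with list length. Of the 251 regions gained with all peaks, 34 (13.5%) were gained with an equal number of peaks, and they were 21.9% of those 155. Of the 114 lost with all peaks, 32 (28.1%) were lost with an equal number, 18.2% of those 176. The regions gained with an equal number of peaks were called with all peaks in ZT8 replicate L at 84 and in ZT8 replicate M at 81 of the 155, and in ZT8 replicate R at 0. Those lost with an equal number were called with all peaks in ZT12 replicate M at 133 of 176.

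At the median, peaks at gained and lost regions lay below the middle of their lists. The peak of a gained region lay at a median of 66.4%, 53.7% and 53.3% from the top of the lists of ZT12 replicates L, M and R, ordered by −log10 q, and the median number of fragments at its summit was 8, 10 and 9. For lost regions the place was 54.2%, 52.7% and 64.7% from the top in ZT8 replicates L, M and R, with 9, 9 and 7 fragments. Over all peaks of a list the median was 10, 10 and 9 fragments in ZT12 replicates L, M and R. In ZT8 replicates L, M and R it was 9, 9 and 7. For regions called in all 6 libraries the median place in a library was between 11.2% and 28.9% from the top, with a median of 10 to 25 fragments. Absence of a call cannot be read as absence of fragments, since the lists hold no value where no peak was called. A peak of a ZT8 library ended within 500 bp of 26 gained regions (10.4%), and a peak of a ZT12 library within 500 bp of 7 lost regions (6.14%).

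The gained regions with the strongest peaks were well above the weakest called. At chr12:10465160-10465636 the ZT12 replicates L, M and R had 21, 34 and 28 fragments at the summit over local backgrounds of 2.2, 3.56 and 2.55, at 21.9%, 13.7% and 9.37% from the top. The region had no ZT8 peak, and it was called in 3 of 3 libraries at ZT4, ZT16 and ZT20 and in none at ZT0, so its missing calls were at ZT0 and ZT8. At chr5:38904307-38904535 the 3 replicates had 14, 26 and 20 fragments. It too was called in every library of ZT4, ZT16 and ZT20 and in 2 of 3 at ZT0, so that ZT8 was the only time point with no call.

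Calls at chr4:46238354-46238812 were more concentrated at ZT12. Its 19, 32 and 14 fragments in replicates L, M and R stood over backgrounds of 1.04, 1.2 and 1.44, and outside ZT12 it was called in 2 of 3 libraries at ZT0, in 0 at ZT4 and in 1 each at ZT16 and ZT20. The region chr3:29053644-29053880 had 13, 17 and 37 fragments, highest in replicate R, and was called in 1 of 3 libraries at each of the other 4 time points. At chr11:8942109-8942314 there were 14, 21 and 25 fragments, and other calls were in 2 libraries at ZT4 and 3 at ZT16. All 5 were also called in 3 ZT12 and 0 ZT8 libraries with an equal number of peaks. That follows from their choice by high place, since the shorter lists also keep the peaks of highest −log10 q.

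The strongest lost region was unlike the others. At chr8:47501003-47501254 ZT8 replicates L, M and R had 255, 284 and 262 fragments at the summit, at 2.93%, 2.78% and 5.27% from the top, but over local backgrounds of 60.8, 69.5 and 54.8, so that the fold was only 4.14, 4.04 and 4.71. Such a background is more than 100 times the genome-wide floor of these libraries. The region lay 99.4% of the way along its chromosome and was called in 2 of 3 libraries at ZT0, ZT4 and ZT20 and in 0 at ZT16.

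The next 4 lost regions had low backgrounds. At chr6:10254967-10255290 there were 15, 18 and 16 fragments in ZT8 replicates L, M and R over backgrounds of 0.773, 0.891 and 0.632, and the region was called in 3 libraries at ZT0, ZT4 and ZT20 and 2 at ZT16. At chr11:9656013-9656457 there were 19, 18 and 11 fragments, and all 3 libraries of each of the other 4 time points called it, so that only ZT12 had no call. The region chr18:6008344-6008819 had 20, 17 and 12 fragments, and its only other calls were in 2 libraries at ZT4, the time point next to ZT8. The fifth, chr19:38266463-38266895, had 13, 15 and 9 fragments and was called in 2, 3, 2 and 0 libraries at ZT0, ZT4, ZT16 and ZT20. All 5 were lost also with an equal number of peaks, which again follows from their choice by high place in −log10 q.

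The classes were then followed into the 12 libraries of the other time points, which had no part in choosing them. Because list lengths differ between libraries, the share of lost regions called in a library was subtracted from the share of gained regions called in the same library. At ZT4, the sampling before ZT8, gained regions were called less often than lost regions in all 3 libraries, by −27.3, −17.2 and −29.3 percentage points in replicates L, M and R. At ZT16, the sampling after ZT12, they were called more often in all 3, by 19.5, 18.1 and 15.1 points. The difference lay between at ZT0, at 3.49, 4.76 and 11.3 points, and at ZT20, at 7.22, −0.496 and −1.14 points. The means were −24.6 ± 6.51 points at ZT4 and 17.6 ± 2.23 at ZT16 (SD, n = 3), 42.1 points apart (exact permutation test, two-sided, p = 0.1, the smallest possible, and 0.1 after adjustment over the 3 contrasts of ZT16 with ZT4 that were computed).

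The distance between ZT4 and ZT16 kept its sign in every setting tried, but the values at each time point did not. When every list had an equal number of peaks it was −19.6, −15.3 and −19.5 points at ZT4 and 26.2, 18.8 and 20.1 points at ZT16, a distance of 39.8 points between the means (exact permutation test, p = 0.1). In the 11 other settings in which the classes were set, the distance was between 25.4 and 56.8 points. With the classes set without ZT8 replicate R it was 26.8 points, and without ZT12 replicate M, where it was smallest, 25.4 points. The mean at ZT4 was no longer below 0 with the classes set without ZT8 replicate L, M or R (1.61, 1.03 and 0.89 points), so that gained regions were then not called less often there. The mean at ZT16 was no longer above 0 with the classes set without ZT12 replicate L (−0.0697 points) or M (−12.1 points), and it was 3.21 points without ZT12 replicate R. The comparison of these further libraries was chosen after the data had been seen. Depth moved with it, as the background coverage was 0.49, 0.461 and 0.426 in ZT4 replicates L, M and R and 0.554, 0.514 and 0.521 in ZT16 replicates L, M and R, lower at ZT4 as it was at ZT8. At ZT0 it was 0.513, 0.398 and 0.542 and at ZT20 0.485, 0.516 and 0.609. The part of depth in the difference between ZT4 and ZT16 was not tested.

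Taken 1 class at a time, the shares were less clear with all peaks than with an equal number. With all peaks, gained regions were called at 32.1 ± 9.09% in ZT4 and 49.1 ± 14.5% in ZT16 libraries (exact permutation test, p = 0.3, adjusted 0.3), and lost regions at 56.7 ± 15.1% and 31.6 ± 12.7% (exact permutation test, p = 0.2, adjusted 0.267). All joined regions together were called at 42.2 ± 7.86% in ZT4 and 45.3 ± 9.89% in ZT16 libraries, so the share of gained regions at ZT16 was within the spread of that of all regions. The groups did not overlap with an equal number. Gained regions were then called at 35.5 ± 1.71% in ZT4 and 53.1 ± 4.2% in ZT16 (exact permutation test, p = 0.1, adjusted 0.2), and lost regions at 53.6 ± 4.11% and 31.4 ± 2.56% (exact permutation test, p = 0.1, adjusted 0.2). For all joined regions the share was then 26.9% in ZT4 and 27.4% in ZT16.

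**Figure D3:**
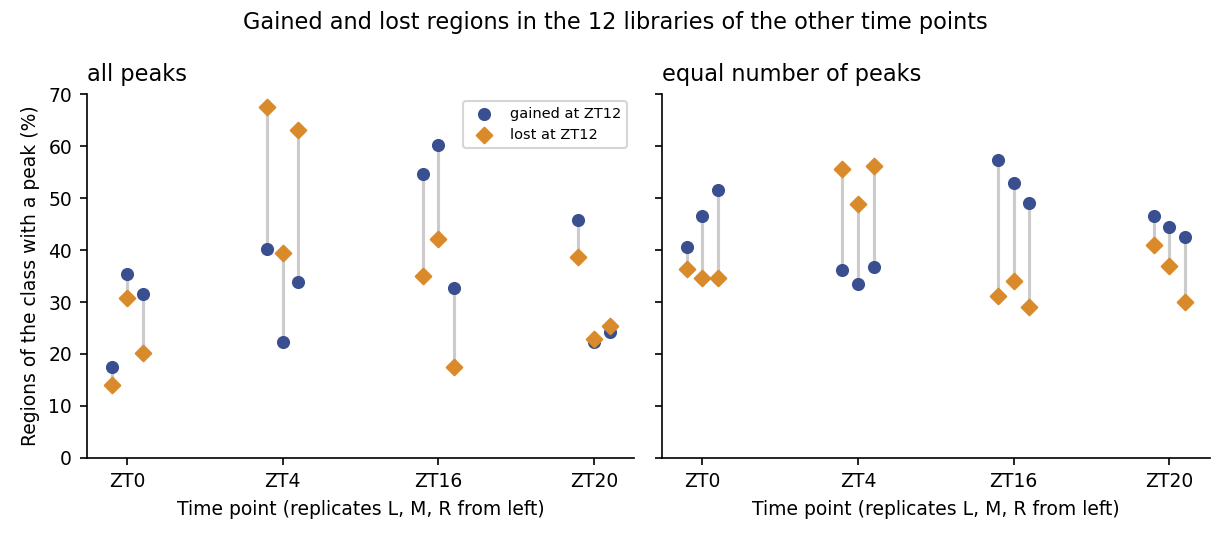
Percent of gained regions (blue circles) and lost regions (orange diamonds) with a peak in each of the 12 libraries of the other time points, replicates L, M and R from left to right, with all peaks (left) and with an equal number of peaks (right). A grey line joins the 2 values of 1 library. Lost regions are above gained regions in all 3 ZT4 libraries and below them in all 3 ZT16 libraries in both panels.

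Region by region the pattern was loose. Among the 251 gained regions 125 were called in more ZT16 than ZT4 libraries, 52 in more ZT4 than ZT16 libraries and 74 in as many. Among the 114 lost regions 13 were called in more ZT16 libraries, 64 in more ZT4 libraries and 37 in as many. A complete run, with calls in no ZT4 or ZT8 library and in every ZT12 and ZT16 library, was found at 12 gained regions, and the reverse run at 7 lost regions. At 1 gained region the run went the other way, with 3 calls at ZT4 and 0 at ZT16, and at 0 lost regions. The same counts were not made over all joined regions, so they have no background share beside them. All joined regions were called somewhat more often in ZT16 libraries (45.3 ± 9.89%) than in ZT4 libraries (42.2 ± 7.86%).

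The following regions were chosen after their values were seen, as the strongest with a complete run. At chr4:39295317-39295627 the ZT12 replicates L, M and R had 13, 10 and 10 fragments over backgrounds of 0.595, 0.495 and 0.851, and the only call outside ZT12 and ZT16 was in 1 ZT20 library. At chr13:35717092-35717372 there were 14, 16 and 12 fragments, and 2 of 3 ZT0 libraries also called it. In the other direction chr2:15220651-15221016 had 12, 10 and 8 fragments in ZT8 replicates L, M and R over backgrounds of 0.631, 0.824 and 0.39. It was called in all ZT4 and ZT8 libraries and in none of the other 4 time points, also in the ZT8 and ZT12 lists with an equal number of peaks. At chr9:6498025-6498411 there were 9, 9 and 7 fragments in the ZT8 libraries, and the only call beyond ZT4 and ZT8 was in 1 ZT20 library.

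Gained and lost regions were spread over the genome. Each of the 20 chromosomes held between 5 and 21 gained and between 1 and 11 lost regions. The outermost parts of a chromosome, 25% from each end, held 75.7% of the gained regions (Wilson 95% interval 70 to 80.6%), 80.7% of the lost regions (72.5 to 86.9%) and 74% of all joined regions. The shares with an equal number of peaks were 81.9% (75.1 to 87.2%) for gained and 72.7% (65.7 to 78.8%) for lost regions, the reverse order. The intervals cover counting error only.

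At the 3726 regions called in all 6 libraries, heights were compared by their order. Each library's peaks at these regions were ordered by −log10 q, the orders were turned into normal scores, and limma was fitted across all 3726. No region passed the threshold (adjusted p under 0.05) in either direction, 0 (0%) higher at ZT12 and 0 (0%) higher at ZT8, with a minimum adjusted p of 0.364. Before adjustment, 156 regions had a limma p under 0.05 and stood higher at ZT12 and 159 stood higher at ZT8, 8.45% of the regions. The places of the 3 libraries did not overlap at 293 regions (7.86%) that stood higher at ZT12 and at 254 (6.82%) that stood higher at ZT8. With an equal number of peaks 0 of 2809 regions passed limma's threshold, and 111 and 108 had an unadjusted p under 0.05.

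With all 6 libraries, pairs from 1 time point and pairs between the time points overlapped in how alike their orders were. Correlations of normal scores across these regions, which are not independent replicates, were 0.714 to 0.789 between ZT8 libraries, 0.78 to 0.804 between ZT12 libraries and 0.701 to 0.791 between the time points. The base-pair Jaccard index of whole lists, the shared length over the joined length, was likewise 0.301 on average between ZT8 libraries, 0.319 between ZT12 libraries and 0.304 between time points. Without ZT8 replicate R the mean index was 0.39 for the ZT8 pair left, 0.319 between ZT12 libraries and 0.334 between time points. That ZT8 pair correlated in order at 0.789, and the pairs then left between time points at 0.731 to 0.791. With an equal number of peaks in all 6 lists the mean index was 0.374 between ZT8 libraries, 0.422 between ZT12 libraries and 0.376 between time points. Pairs share libraries, so these values have no test.

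The regions of smallest p in each direction are given as a description, since none passed. At chr3:35289603-35290303 the ZT8 replicates L, M and R held places 1734.5, 1735.5 and 1816 of 3726 and the ZT12 replicates places 3631, 3416.5 and 3561 (adjusted p = 0.364 by limma). Its summit held 22, 20 and 12 fragments at ZT8 and 7, 12 and 8 at ZT12. At chr14:34086369-34087226 the places were 1725.5, 1957 and 2581.5 at ZT8 and 3576, 3613 and 3669.5 at ZT12. At chr5:32149326-32150530 they were 1440, 471 and 700 at ZT8 and 3577.5, 3295.5 and 3321 at ZT12, with 28, 45 and 22 fragments against 7, 14 and 11. In all 3 regions no place of one time point reached those of the other, and all 3 were called in every library of the other 4 time points.

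Of the regions that stood higher at ZT12, chr11:8904078-8904532 held places 3341, 3300 and 3064 at ZT8 and 1571, 2051 and 1115 at ZT12 (adjusted p = 0.369 by limma), with 15, 15 and 10 fragments against 26, 35 and 32. At chr15:8646271-8647669 the places were 3576, 3610 and 3343 at ZT8 and 2477, 2023 and 2476 at ZT12. At chr10:41298885-41299924 they were 1898, 2119.5 and 2581.5 at ZT8 and 851, 785 and 839 at ZT12, with 20, 17 and 9 fragments against 26, 43 and 27. Fragments depend on the depth of a library and were not compared between libraries by a test.

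The 293 and 254 regions with places that did not overlap were also followed into the other 12 libraries. In each library the regions it called among the 3726 were ordered again, and the mean normal score of the regions that stood higher at ZT8 was subtracted from that of the regions that stood higher at ZT12. The difference was 0.344, 0.381 and 0.291 in ZT16 replicates L, M and R and −0.0321, −0.024 and 0.0145 in ZT4 replicates L, M and R. The means were 0.339 ± 0.045 at ZT16 and −0.0139 ± 0.0249 at ZT4 (SD, n = 3), 0.353 apart (exact permutation test, two-sided, p = 0.1, the smallest possible, 0.1 after adjustment). At ZT0 the difference was 0.109 ± 0.0526 and at ZT20 0.117 ± 0.0425, between those of ZT4 and ZT16. In the ZT16 libraries the regions that stood higher at ZT12 were thus again the higher on average, and in the ZT4 libraries the difference was close to 0.

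**Figure D4:**
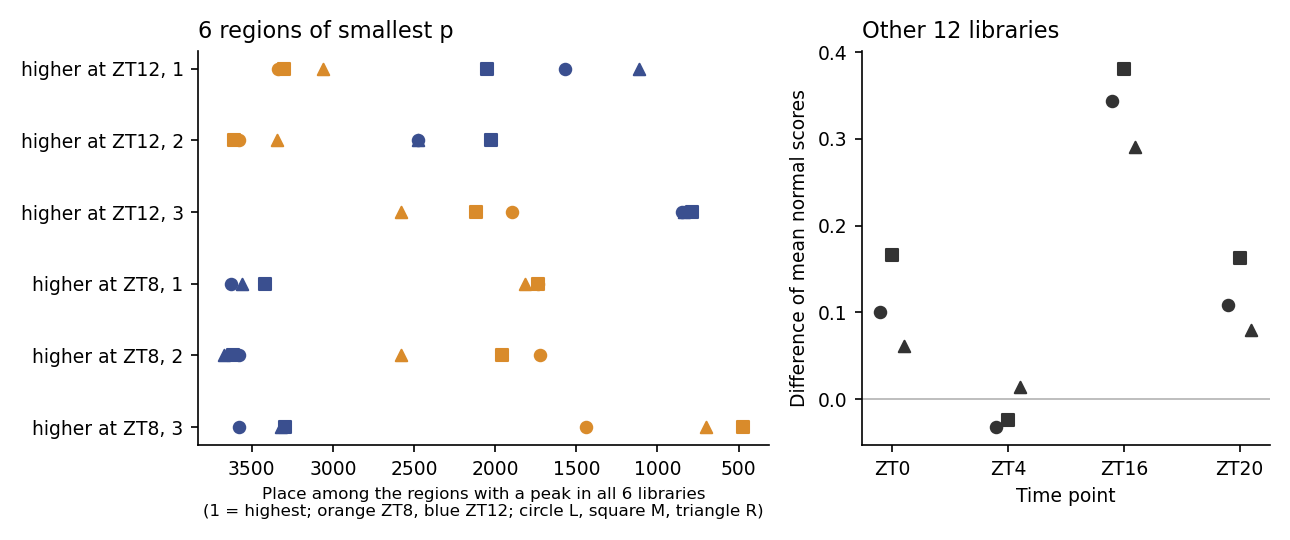
Left, place of the peak among the 3726 regions called in all 6 libraries (1 is highest) for the 3 regions of smallest p in each direction, in ZT8 (orange) and ZT12 (blue) libraries, with replicates L, M and R as circle, square and triangle. Right, the mean normal score of regions that stood higher at ZT12 minus that of regions that stood higher at ZT8 in each of the 12 other libraries, from 0.291 to 0.381 at ZT16 and from −0.0321 to 0.0145 at ZT4.

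Peak widths at the regions called in all 6 libraries did not separate the time points. The median width was 378, 371 and 280 bp in ZT8 replicates L, M and R and 348, 404 and 353.5 bp in ZT12 replicates L, M and R. The means were 343 ± 54.7 bp and 368.5 ± 30.9 bp (SD, n = 3), 25.5 bp apart (exact permutation test, two-sided, p = 0.6). The narrow peaks were those of ZT8 replicate R, and without that library the difference was −2.67 bp. By limma on log2 width 0 of 3726 regions (0%) were wider and 0 (0%) narrower at ZT12, with a smallest adjusted p of 0.28. At an unadjusted limma p under 0.05, 179 were wider and 55 narrower, and without ZT8 replicate R 210 and 175.

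At the median, the summits of a region, its highest points, lay about as far apart within a time point as between the time points. Between any 2 libraries the summits of a region lay a median of 30 to 43 bp apart, with a mean of 39.2 bp over pairs of ZT8 libraries, 32.7 bp over pairs of ZT12 libraries and 36.7 bp over pairs between the time points. By limma on summit position, 1 of the 3726 regions (0.0268%) had its summit farther along the chromosome at ZT12 and 3 (0.0805%) nearer the start (adjusted p under 0.05). These 4 regions fell outside the rule for naming and were chosen after their values were seen. The prior degrees of freedom of that fit were 0.868, so that the spread among the libraries of a region itself largely set its p. With only 3 libraries at each time point, a region without a call cannot be read as one whose summit stayed in place.

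At chr9:43007194-43007569 the summit lay 276, 274 and 283 bp from the region's start in ZT8 replicates L, M and R and 104, 112 and 114 bp in ZT12 replicates L, M and R, a shift of −167.7 bp (SE 7.58, adjusted p = 0.00841 by limma). Both time points had similar fragments at the summit, 14, 23 and 9 against 14, 20 and 18. The call held in regions with exactly 1 peak per library (adjusted p = 0.0126) and with an equal number of peaks (0.00513), and it was lost without ZT12 replicate M (0.078) or R (0.0637). Outside these time points both positions occurred. The summit lay at 104, 134 and 106 bp at ZT0 and at 307, 62 and 314 bp at ZT4, and it also varied within ZT16 (345, 103 and 110 bp) and ZT20 (274, 251 and 113 bp).

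At chr19:7254912-7256462 the summit lay at 931, 939 and 939 bp at ZT8 and at 570, 561 and 546 bp at ZT12, a shift of −377.3 bp (SE 9.48, adjusted p = 0.000974 by limma). This region of 1551 bp held more than 1 peak in at least 1 library, so that the higher of several peaks could be taken. At chr6:50921551-50922571 the summit moved from 356, 342 and 307 bp to 723, 717 and 654 bp, by 363 bp (SE 24.9, adjusted p = 0.0412). At chr18:44137813-44138279 it moved from 245, 246 and 245 bp to 127, 138 and 115 bp, by −118.7 bp (SE 8.95, adjusted p = 0.0488). For these last 2 the adjusted p rose to 0.0519 in regions with exactly 1 peak per library, and it was over 0.05 when any 1 of the 6 libraries was left out.

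At the other time points the summits of these 3 regions also varied within a time point, though not everywhere alike. At chr19:7254912-7256462 they lay at 880, 690 and 457 bp at ZT0 and 372, 701 and 404 bp at ZT4, and at 614, 440 and 599 bp at ZT16. At ZT20 they lay there at 1016, 880 and 886 bp, nearer the ZT8 than the ZT12 positions. At chr6:50921551-50922571 they lay at 548, 359 and 625 bp in ZT16 replicates L, M and R. In ZT20 replicates L, M and R they lay at 403, 300 and 337 bp, again nearer the ZT8 positions. ZT4 replicates L and R had it at 599 and 344 bp and ZT0 replicate M at 647 bp, without a peak in the other ZT0 and ZT4 libraries. At chr18:44137813-44138279 they lay at 126, 218 and 165 bp at ZT4 and 121, 123 and 219 bp at ZT16. They lay there at 197, 126 and 138 bp at ZT0 and at 169, 198 and 244 bp at ZT20.

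**Figure D5:**
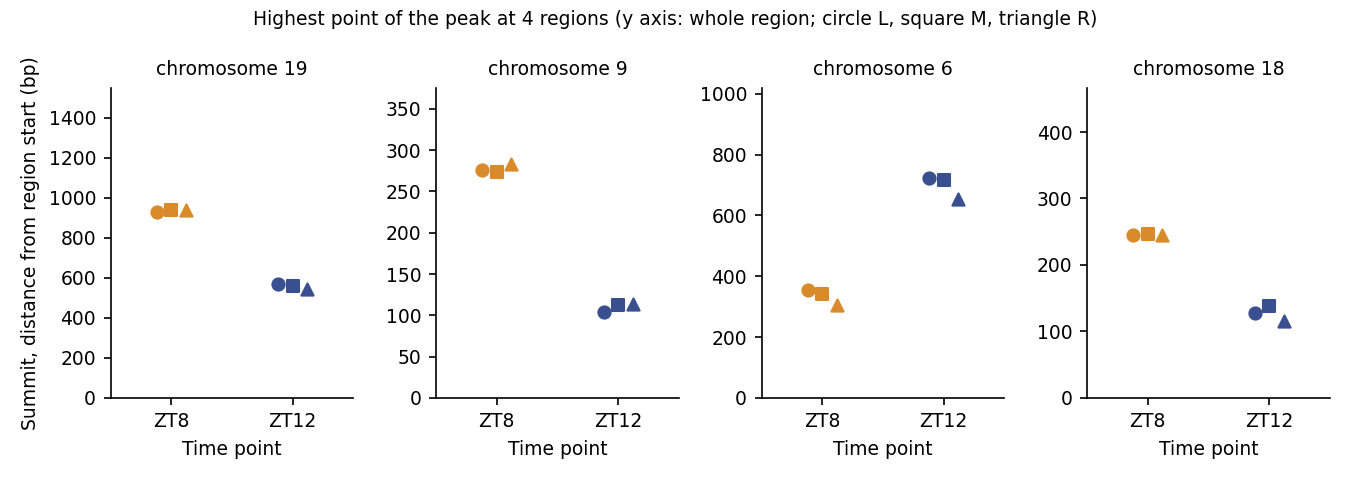
Distance of the peak summit from the start of the region in bp at the 4 regions with an adjusted p under 0.05, in ZT8 (orange) and ZT12 (blue) libraries, with replicates L, M and R as circle, square and triangle. Each vertical axis spans the whole region. The 3 libraries of ZT8 and of ZT12 sit close together, as at chromosome 9, with 274 to 283 bp at ZT8 and 104 to 114 bp at ZT12.

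The following regions were chosen from the 3726 for a high mean place over these same 6 libraries. High places in the single libraries therefore follow in part from that choice. Regions outside both merged lists are not part of this order. Place 1 of 3726 in 5 of the 6 libraries, and place 2 in ZT12 replicate R, was held by chr16:19635159-19635486, with folds of 60.6, 64.4 and 64.6 at ZT8 and 57.9, 64 and 61.1 at ZT12. The region chr1:27893794-27894226 held place 2 in ZT8 replicates L, M and R and places 2, 5 and 3 in ZT12 replicates L, M and R. Its peak was 430 to 433 bp wide in every library. The order varied more at chr18:5017350-5017611, with places 24, 3 and 3 at ZT8 and 5, 2 and 20 at ZT12. At chr17:6409426-6409682 the peak was 257 bp wide in all 6. The reads were aligned with up to 10 places kept per pair, and whether sequence repeated in the genome contributed to such heights was not tested.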

How the data were processed

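ATAC-seq was measured in 3 libraries each of ZT8 and ZT12 (replicates L, M and R, independent biological replicates per the labels). The authors aligned reads with Bowtie2 to Wm82.a2.v1, keeping up to 10 alignments per pair, and called peaks with MACS2 on whole fragments in each library and on pooled reads of a time point. They kept peaks found in both and filtered the result, including removal of the top 0.5% by signal. The paper states that replicates were downsampled to a standard depth for the calls in single libraries. The background coverage recovered from the library lists still differed between libraries. The deposited library lists hold for each peak a score, a fold over background (a ratio), a −log10 p and a −log10 q, and the deposited merged lists hold positions only. If the filter was applied to each time point, it could remove a region at 1 time point and keep it at another. In MACS2 the fold and the Poisson p of a peak both derive from its fragment pile-up and local background, with 1 added to each for the fold, so fragments at the summit were recovered as whole numbers for at least 99.949% of peaks with a −log10 p under 200. The most frequent background of a library is its background coverage, and read totals were not used here. Fold and −log10 values were used to order peaks within a list.

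Overlapping regions of both merged lists were joined, and the best peak by −log10 q was taken where several overlapped a region. limma 3.58.1 (R 4.3.3) without trend was fitted to normal scores, log2 widths and summit positions of regions called in all 6 libraries, with Benjamini-Hochberg adjustment over all regions and a threshold of 0.05. Library values were compared by two-sided exact permutation tests of 3 against 3. With an equal number of peaks, classes used the 8143 highest peaks of each of the 6 lists, and shares at other time points the 7668 highest of each of the 18. Python 3.11.15, numpy 2.4.6, pandas 2.3.3, scipy 1.17.1 and matplotlib 3.10.9 were used. Alternatives were an equal number of peaks, only the upper 50% of a list, a −log10 q minimum of 5, 50% overlap, regions from the library lists, each library left out, a replicate block and other ways of ordering. Settings added after seeing the data were an equal number of peaks without ZT8 replicate R, regions with exactly 1 peak for summits, and all settings for summits and for the contrast of ZT16 with ZT4.

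Regions were named by rule: the 5 gained and 5 lost regions with the highest mean place within the lists, and the 10 regions of smallest p in each direction by order, or 3 as a description where fewer than 3 passed. Windows around clock genes and searches for clock motifs were also planned, and they were not used here, because the gene table at hand is of another assembly (Glycine_max_v4.0). The comparison, the regions and these lists were chosen with earlier results of these data known. Columns of per-sample values left unused numbered 0.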

Additional observations from a re-analysis of the deposited data

Results flagged for a closer look

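A signal outside the merged lists appeared in all 6 libraries. When the peaks of the 6 library lists were joined, 3808 regions had a peak in every library, and 95 of them (2.49%) were in neither the ZT8 nor the ZT12 merged list, on which the comparison rests. These 95 held strong peaks, with medians between 0.218% and 0.596% from the top of the lists, against 11.2% to 28.8% for the listed regions. In the upper 1% of all 6 lists there were 69 regions outside the merged lists and 12 within them. The paper states that the top 0.5% of ACRs by signal were excluded, without saying that this was done in each merged list. The part of that filter in these numbers was not tested.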

How the results depend on the processing

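Of 285 values under other settings, for 26 results, 200 were classed as the same as in the main setting. For counts this meant an equal or similar number, and it includes limma counts of 0 that stayed 0. For differences only the sign was compared. For the named summit shifts the adjusted p also had to stay under 0.05. Jaccard indices had to stay within the SD over library pairs, and shares within counting error. Gained regions numbered 155 with an equal number of peaks, 133 at −log10 q of at least 5, 163 in the upper 50% of each list and 306 to 996 with 1 library left out. Lost regions numbered 176, 25 and 53 under the same 3 settings, 144 to 797 with 1 library left out, and 635 with an equal number of peaks and without ZT8 replicate R. The excess of gained over lost regions turned to −21 with an equal number of peaks and to −366 when ZT8 replicate R was also left out, and ranged from −491 (without ZT8 replicate R) to 852 (without ZT12 replicate L). The differences ZT12 minus ZT8 of the library measures also turned. With 1 library left out, peak number ranged from −169 to 5326, covered length from −0.0748 to 1.69 Mb, median width from −1.67 to 18.3 bp and the width at shared regions from −2.67 to 44.8 bp. With an equal number of peaks and without ZT8 replicate R, covered length differed by −0.0534 Mb, median width by −6.5 bp and width at shared regions by −3.17 bp. The causes were not tested.

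The outer share of gained regions was 81.9% with an equal number of peaks, 81.5% at 50% overlap, 81% with an equal number and without ZT8 replicate R and 69.2% to 76.5% with 1 library left out. That of lost regions was 72.7% with an equal number and 68% at −log10 q of at least 5. Mean Jaccard indices with an equal number of peaks were 0.422 (ZT12) and 0.376 (between), at −log10 q of at least 5 0.378 (ZT12), and with an equal number and without ZT8 replicate R 0.444 (ZT8), 0.389 (ZT12) and 0.387 (between). With 1 library left out the ZT8 index ranged from 0.255 to 0.39 and the ZT12 index from 0.318 to 0.32. At −log10 q of at least 5, 76.5% of ZT8 and 64.4% of ZT12 merged regions were shared.

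limma with trend and robust variance called 1 region higher at ZT8, chr16:27255898-27256221 (places 15, 16 and 15 against 25, 29 and 27, adjusted p = 8.04e-06), and at 50% overlap 1 region narrower at ZT12, chr9:48954949-48955491 (473, 521 and 510 bp against 302, 304 and 306 bp, adjusted p = 0.0345). The other ways of ordering called 0 regions in both directions. Summit calls farther along and nearer the start numbered 0 and 1 with exactly 1 peak, 0 and 2 with an equal number of peaks, at −log10 q of at least 5, in the upper 50% and at 50% overlap, 8 and 8 with an equal number and without ZT8 replicate R, and 0 to 6 and 1 to 10 with 1 library left out.

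The letters L, M and R were not stated to pair libraries across time points, and same-lettered libraries did not deviate together (correlations −0.018, 0.0668 and 0.0846 over ranks). With the replicate block, 0 regions passed for order, width or summit, with smallest adjusted p of 0.487, 0.697 and 0.166, and the order also gave 0 with an equal number of peaks. Lists hold only called peaks, so places with too few fragments for a call are missing. List length did not simply follow background coverage. Among the 6 libraries ZT8 replicate R was lowest in both, with 8143 peaks at 0.39. ZT12 replicate L had 10813 peaks at 0.595, fewer than the 16939 of ZT8 replicate M at 0.476.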

Other observations

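Of the pairs of a gained and a lost region, 2, chosen after their values were seen, lay within 2 kb. How often other sets of joined regions of these sizes lie so close was not computed. On chromosome 3 the gained region chr3:42286232-42286770 (10, 6 and 10 fragments in ZT12 replicates L, M and R) and the lost region chr3:42285475-42285784 (9, 7 and 9 fragments in ZT8 replicates L, M and R) were 447 bp apart. On chromosome 11 the gained region chr11:8942109-8942314 lay 1973 bp from the lost region chr11:8939712-8940135, which had 11, 13 and 9 fragments in ZT8 replicates L, M and R and was called in no library of the other 5 time points. In the next pair the regions were 24289 bp apart.

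Some regions were called at 1 time point alone. Among the 18 libraries, 16 gained regions were called only in the 3 ZT12 libraries and 9 lost regions only in the 3 ZT8 libraries. The share of all joined regions with no call at the other 4 time points was not computed. Libraries of those time points called on average between 32.2% (ZT0) and 45.3% (ZT16) of all joined regions, so missing calls there were common. The strongest were chr7:2904801-2905417, with 11, 13 and 13 fragments in ZT12 replicates L, M and R over backgrounds of 1.07, 1.74 and 1.52, and chr18:6271000-6271424, with 18, 20 and 12 fragments in ZT8 replicates L, M and R over backgrounds of 3, 2.37 and 1.82.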
